A study of Mus musculus with 6 samples.

Results

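The genes described here are 10 macrophage genes used as markers of Kupffer cells, the resident macrophages of the liver, read in RNA sequencing libraries of cultured mouse hepatocytes. They are *Lyz2*, *Clec4f*, *Cd5l*, *Marco*, *Vsig4*, *C1qa*, *C1qb*, *C1qc*, *Csf1r* and *Adgre1*. They were taken by name from the raw count table, and all 10 were found among its 25184 genes. All 10 also passed the filter on low counts, which left 15105 genes for the tests.

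The 6 libraries came from primary hepatocytes of mice fed a chow diet. The cells of the left lateral liver lobe were freed by enzymatic digestion, passed through a density gradient and kept in culture overnight on collagen. The 3 control libraries were from *Sucnr1* fl/fl mice, which carry floxed alleles of the succinate receptor gene *Sucnr1* and no Cre. The 3 Hep-*Sucnr1* KO libraries were from *Sucnr1* fl/fl mice that also carry an *Alb*-Cre transgene, in which the albumin promoter drives the recombinase in hepatocytes. Cre mice came from a C57BL6J background, and the sex and age of the mice behind these libraries are not given in the sources used here. The labels also give the day of extraction. Replicate 1 of the *Sucnr1* fl/fl group and replicate 3 of the Hep-*Sucnr1* KO group were extracted on day 1, and *Sucnr1* fl/fl replicates 2 and 3 and Hep-*Sucnr1* KO replicates 4 and 5 on day 2.

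Kupffer cells line the liver sinusoids, where they bind and engulf bacteria, ageing blood cells and debris. They depend on signalling through the receptor encoded by *Csf1r*, and the transcription factor PU.1, which binds purine-rich sites with a GGAA core, directs much of the macrophage gene programme. Hepatocytes do not form part of this lineage, and the albumin promoter is not active in it, so the floxed *Sucnr1* alleles should be intact in any Kupffer cell that stayed in the cultures of either genotype.

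The libraries held 30504248 to 38770694 counts, of which 7.70% to 9.71% fell on genes of the mitochondrial genome. The label of the cells as hepatocytes was borne out by the hepatocyte genes, with *Alb*, the albumin gene, at 37109 to 68901 CPM (counts scaled to the library total, with TMM factors) and the 10 genes of that list together at 82285 to 121351 CPM. *Sucnr1* itself stood at 6.71, 3.55 and 3.39 CPM in *Sucnr1* fl/fl replicates 1, 2 and 3. It stood at 2.66, 0.827 and 0.152 CPM in Hep-*Sucnr1* KO replicates 3, 4 and 5. The genotypes did not overlap, but the Hep-*Sucnr1* KO library of day 1 still held 84 *Sucnr1* counts, and the adjusted p of the gene was 0.998 (edgeR, log2 fold change −2.23 ± 0.54, SE).

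The counts and these positions use the GRCm38 build. The 3 genes for the chains of C1q lie side by side on the minus strand of chromosome 4. *C1qb* spans chr4:136880129-136886187, *C1qc* chr4:136889804-136893065 and *C1qa* chr4:136895917-136898803, so that the trio takes up 18675 bases. *Lyz2* (chr10:117277331-117282321, minus strand) stands beside its paralog *Lyz1* (chr10:117287797-117292868, minus strand). *Clec4f* lies at chr6:83644542-83656187 (minus), *Cd5l* at chr3:87357881-87371073 (plus), *Marco* at chr1:120474538-120505024 (minus) and *Vsig4* at chrX:96247203-96293438 (minus). *Adgre1* lies at chr17:57358691-57483527 (plus). No exon of the 10 genes overlaps an exon of another gene on the same strand, and only *Csf1r* has an annotated gene, *Hmgxb3*, within its span on the opposite strand, where the stranded counting keeps the reads of the strands apart.

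The 250 bases before the transcription start were available from RefSeq (GRCm38.p6) for 7 of the 10 genes, and those for *C1qa*, *Csf1r* and *Adgre1* were not used here. The windows of *Lyz2*, *Clec4f* and *C1qc* reach into the first exon of the Ensembl gene model, which starts further upstream, and are counted with the others. All were searched on both strands for the letters GAGGAA and for the letters AGGAAGT. Both are forms of the purine-rich core that PU.1 binds, and their matches can overlap. GAGGAA was found in 5 of the 7, against 23.3% of all 32851 promoters of the table, and AGGAAGT in 3 of the 7, against 7.69%. At least 1 of the forms was present upstream of *Marco*, *Cd5l*, *C1qb*, *C1qc*, *Lyz2* and *Vsig4*, which is 6 of the 7 against 27.3% of all promoters, and neither was in the window of *Clec4f*. These matches describe letters, and no binding was measured. Of the 6 windows with a match, the 4 that do not reach into the first exon of the Ensembl model are shown. They run 5′ to 3′ on the strand of the gene, with the matched letters in capitals: *Marco* and *Vsig4* for surface receptors, *Cd5l* for a secreted protein and *C1qb* for the complement chains.
Marco (chr1:120505025-120505274, minus strand): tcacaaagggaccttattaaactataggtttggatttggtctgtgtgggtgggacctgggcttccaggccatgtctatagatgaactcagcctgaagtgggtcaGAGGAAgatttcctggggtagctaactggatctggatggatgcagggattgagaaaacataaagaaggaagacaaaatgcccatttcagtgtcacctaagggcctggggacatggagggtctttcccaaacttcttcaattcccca
Vsig4 (chrX:96293439-96293688, minus strand): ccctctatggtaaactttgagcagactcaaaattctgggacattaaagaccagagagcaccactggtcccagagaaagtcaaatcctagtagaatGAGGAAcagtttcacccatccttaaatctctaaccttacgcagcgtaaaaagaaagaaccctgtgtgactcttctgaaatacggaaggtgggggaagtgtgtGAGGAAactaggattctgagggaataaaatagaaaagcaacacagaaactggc
Cd5l (chr3:87357631-87357880, plus strand): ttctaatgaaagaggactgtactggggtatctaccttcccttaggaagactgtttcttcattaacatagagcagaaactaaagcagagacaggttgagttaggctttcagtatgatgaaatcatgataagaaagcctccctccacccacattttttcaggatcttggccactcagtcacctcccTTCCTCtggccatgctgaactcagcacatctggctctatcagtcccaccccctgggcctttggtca
C1qb (chr4:136886201-136886450, minus strand): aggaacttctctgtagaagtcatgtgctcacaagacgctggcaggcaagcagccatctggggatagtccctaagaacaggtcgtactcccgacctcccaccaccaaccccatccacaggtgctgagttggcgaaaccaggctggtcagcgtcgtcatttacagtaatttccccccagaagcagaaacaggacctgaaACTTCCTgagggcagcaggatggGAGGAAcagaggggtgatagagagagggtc

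All 10 genes were detected in every library, and they differed between libraries far more than between genotypes. In each of the 10 the highest library was *Sucnr1* fl/fl replicate 3 and the lowest was Hep-*Sucnr1* KO replicate 3. The latter was also the lowest library of 16.3% of all tested genes. The summed level of the 10 genes was 49.8, 44.0 and 164.7 CPM in *Sucnr1* fl/fl replicates 1, 2 and 3. It was 10.2, 136.6 and 99.2 CPM in Hep-*Sucnr1* KO replicates 3, 4 and 5. The sum therefore covered a 16.2-fold range, and each genotype held both low and high libraries, and the means of the groups were 86.1 ± 68.1 CPM (*Sucnr1* fl/fl) and 82.0 ± 64.9 CPM (Hep-*Sucnr1* KO), both as SD over 3 libraries.

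**Figure D1:**
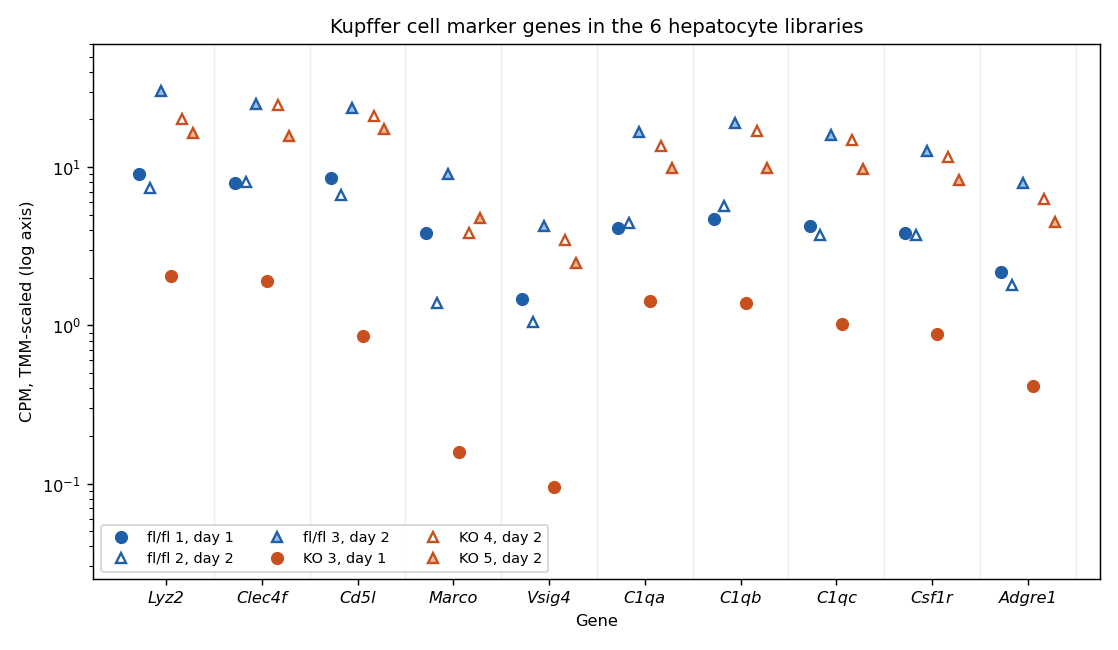
CPM (TMM-scaled, log axis) of the 10 Kupffer cell marker genes. Each point is 1 library, blue for Sucnr1 fl/fl and orange for Hep-Sucnr1 KO, circles for extraction day 1 and triangles for day 2. For each gene Hep-Sucnr1 KO replicate 3 is lowest and Sucnr1 fl/fl replicate 3 highest, and blue and orange points overlap.

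The C-type lectin receptor *Clec4f*, which in mouse liver is made by Kupffer cells and binds desialylated glycans, stood at 7.90, 8.09 and 25.2 CPM in *Sucnr1* fl/fl replicates 1, 2 and 3 and at 1.90, 24.8 and 15.7 CPM in Hep-*Sucnr1* KO replicates 3, 4 and 5. Its replicates within a genotype differed more than the genotype means, which were 13.7 ± 9.92 and 14.1 ± 11.5 CPM. *Vsig4*, a complement receptor that captures opsonised bacteria, was at 1.46, 1.05 and 4.25 CPM in the same order of *Sucnr1* fl/fl libraries and at 0.0949, 3.48 and 2.49 CPM in the Hep-*Sucnr1* KO libraries. The lowest of these values rested on 3 counts and the highest on 129.

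*Marco*, a scavenger receptor for bacterial surfaces, had the widest range of the 10 genes, 56.9-fold. It stood at 3.85, 1.38 and 9.0 CPM in *Sucnr1* fl/fl and at 0.158, 3.81 and 4.79 CPM in Hep-*Sucnr1* KO, the lowest from 5 counts. *Marco* was the gene whose order of libraries departed most from the others. After *Sucnr1* fl/fl replicate 3 came Hep-*Sucnr1* KO replicate 5 and then *Sucnr1* fl/fl replicate 1, while in the other 9 genes Hep-*Sucnr1* KO replicate 4 and then replicate 5 came next.

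Of the secreted products, *Cd5l* encodes a soluble scavenger protein of tissue macrophages. It stood at 8.48, 6.67 and 23.8 CPM in *Sucnr1* fl/fl and at 0.854, 21.1 and 17.4 CPM in Hep-*Sucnr1* KO, a 27.9-fold range. *Lyz2* encodes lysozyme M, a bacteriolytic enzyme of macrophages and other myeloid cells, and was at 9.02, 7.37 and 30.4 CPM in *Sucnr1* fl/fl and at 2.06, 20.3 and 16.5 CPM in Hep-*Sucnr1* KO. The *Lyz2* and *Lyz1* transcripts were identical at 96.0% of 1262 aligned bases, with identical runs of up to 118 bases, so read pairs could be shared between the paralogs. *Lyz1* held only 1 to 7 counts per library against 65 to 921 for *Lyz2*.

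*C1qa*, *C1qb* and *C1qc* encode the chains of C1q, the recognition molecule of the classical complement pathway. *C1qa* was at 4.11, 4.45 and 16.6 CPM in *Sucnr1* fl/fl and at 1.42, 13.6 and 9.92 CPM in Hep-*Sucnr1* KO. *C1qb* was at 4.68, 5.71 and 19.1 CPM and at 1.39, 16.9 and 9.89 CPM, and *C1qc* at 4.24, 3.70 and 16.0 CPM and at 1.01, 14.8 and 9.74 CPM, respectively. The trio kept close proportions while its level differed between libraries: *C1qa* gave 30.1% to 37.2% of the counts of the 3 genes, *C1qb* 33.5% to 41.2% and *C1qc* 26.4% to 33.0%. Where only 121 counts stood behind the shares, in Hep-*Sucnr1* KO replicate 3, the interval of the *C1qa* share was 29.1% to 46.1% (95% Wilson interval) and contained the share of *C1qa* in each other library. The proportions were not equal throughout. The *C1qb* share was 41.2% in *Sucnr1* fl/fl replicate 2 (36.8% to 45.8%) and 33.5% in Hep-*Sucnr1* KO replicate 5 (30.6% to 36.5%), and these intervals did not overlap.

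*Csf1r*, the receptor for the growth factors CSF1 and IL-34 on which macrophages depend, stood at 3.85, 3.73 and 12.6 CPM in *Sucnr1* fl/fl and at 0.886, 11.5 and 8.25 CPM in Hep-*Sucnr1* KO. *Adgre1*, which encodes the mouse macrophage surface antigen F4/80, stood at 2.18, 1.80 and 7.91 CPM and at 0.411, 6.26 and 4.52 CPM. The library of highest level exceeded that of lowest level 14.2-fold for *Csf1r* and 19.2-fold for *Adgre1*, and the smallest such range of the 10 genes was that of *C1qa*, 11.7-fold. Among the 11714 tested genes with a mean of 1 CPM or more the median range was 1.45-fold, and 1.15% had a range of at least that of *C1qa*.

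Per kilobase of merged exon, the mean level over the 6 libraries was highest for *Lyz2*, at 10.8 ± 7.78 CPM per kb (SD, n = 6). *C1qb* followed at 8.82 ± 6.48, *C1qa* at 8.04 ± 5.77, *Cd5l* at 6.41 ± 4.45, *Clec4f* at 5.63 ± 3.89 and *C1qc* at 4.27 ± 3.22 CPM per kb. The order closed with *Marco* at 1.99 ± 1.59, *Vsig4* at 1.44 ± 1.05, *Adgre1* at 1.19 ± 0.89 and *Csf1r* at 1.18 ± 0.82 CPM per kb. No neighbours in this order were apart by more than the spread between libraries. Compared within libraries, *Clec4f* stood above *C1qc* and *C1qc* above *Marco* in 6 of 6, whereas *C1qb* stood above *C1qa* in 4 of 6 and *Adgre1* above *Csf1r* in 2 of 6.

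The genotype comparison asked whether the marker genes differed between cultures with and without the *Alb*-Cre transgene, and no gene of the 10 did so beyond the replicate spread. In edgeR's quasi-likelihood test with extraction day and genotype in the model, the log2 fold change (Hep-*Sucnr1* KO minus the control group) ran from −1.18 ± 0.93 (SE) for *Marco* to −0.31 ± 0.54 for *C1qa*, with a median of −0.44 over the 10 genes and 0.00 over all tested genes. The adjusted p was 0.998 for each, and 0 of the 10 had an unadjusted p below 0.05, against 3.72% of all tested genes (562). With the same test, 0 of the 15105 genes passed an adjusted p of 0.05 (0%). DESeq2 called 13 genes, and its independent filtering gave the 10 genes no adjusted p. The values of the genotypes overlapped for all 10 genes, while 10.6% of all tested genes had genotypes that did not overlap.

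The negative estimates rested largely on the day 1 pair. On day 1 *Sucnr1* fl/fl replicate 1 exceeded Hep-*Sucnr1* KO replicate 3 in all 10 genes, from 2.89-fold for *C1qa* (95% interval 2.06 to 4.11) to 24.3-fold for *Marco* (10.2 to 76.0), with *Vsig4* at 15.3-fold (4.99 to 76.6). These intervals are exact conditional ones for the counts of 2 libraries and cover counting error only, and no replicate stands behind either library. Day 2 had 2 libraries of each genotype, and there the ratio of the Hep-*Sucnr1* KO mean to the *Sucnr1* fl/fl mean lay between 0.829 for *Marco* and 1.27 for *Cd5l*. The pair of *Sucnr1* fl/fl libraries of that day differed from each other by 3.11-fold (*Clec4f*) to 6.51-fold (*Marco*), and the pair of Hep-*Sucnr1* KO libraries by 1.21-fold (*Cd5l*) to 1.70-fold (*C1qb*). Without Hep-*Sucnr1* KO replicate 3 the median log2 fold change of the 10 genes was 0.17 and 8 of 10 estimates were above 0. Without *Sucnr1* fl/fl replicate 2 the median was −1.06, and the adjusted p was 0.952 for each gene (edgeR).

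The interaction of genotype and day was larger than 0 for all 10 genes, from 1.69 for *C1qa* to 4.31 for *Marco* on the log2 scale. *Cd5l* (3.65, unadjusted p = 0.0152 in edgeR), *Vsig4* (4.06, unadjusted p = 0.0314) and *Marco* (unadjusted p = 0.0447) were the 3 of 10 with an unadjusted p below 0.05, against 3.69% of all tested genes. The share was not particular to them: in the lists described below it was 7 of 15 sinusoidal endothelial genes. It was 2 of 9 tested scavenger receptor genes, 2 of 20 genes of macrophages and leukocytes at large and 0 of 10 hepatocyte genes. None of the 10 passed the adjusted threshold (adjusted p 0.9997 for each in edgeR, 0.0628 for *Cd5l* as the lowest in DESeq2), and 0 of all tested genes (0%) did so in edgeR, where 557 had an unadjusted p below 0.05, against 4 in DESeq2.

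**Figure D2:**
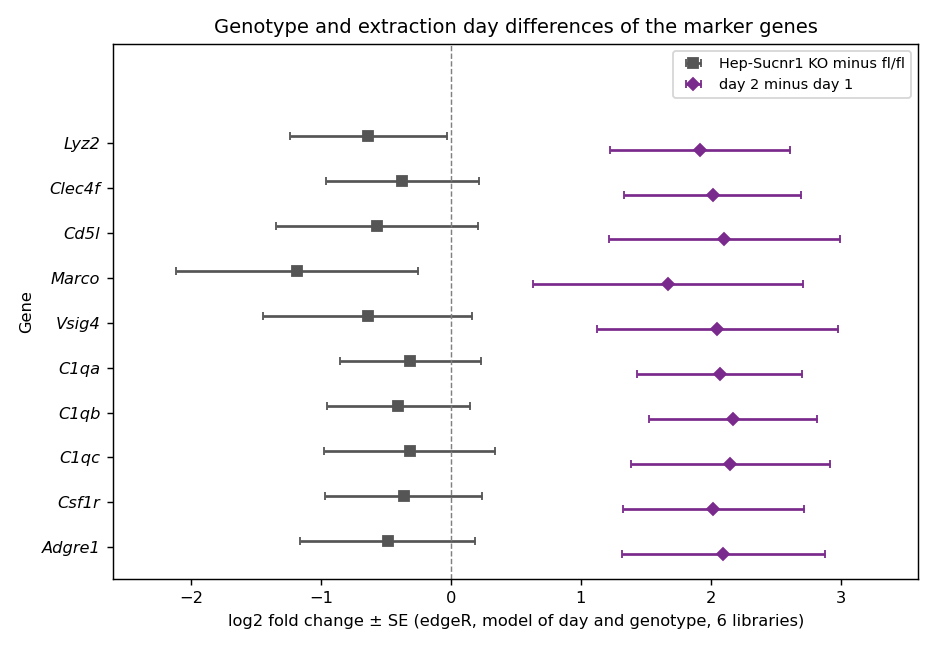
Log2 fold change and SE (edgeR quasi-likelihood fit of day and genotype, 6 libraries) of each marker gene for genotype (grey squares) and extraction day (purple diamonds). The genotype values lie between −1.18 and −0.31 and the day values between 1.67 and 2.17, with adjusted p of at least 0.54 for all of them.

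The extraction days were compared with genotype in the model. The log2 difference of day 2 minus day 1 was similar over the 10 genes, from 1.67 ± 1.04 (SE) for *Marco* to 2.17 ± 0.65 for *C1qb*, with a median of 2.06 against 0.02 over all tested genes. Mean levels on day 1 (2 libraries) and day 2 (4 libraries) were 4.90 and 18.4 CPM for *Clec4f*, 4.67 and 17.3 CPM for *Cd5l* and 3.04 and 12.9 CPM for *C1qb*. The adjusted p in edgeR was 0.540 for *C1qb*, 0.542 for *C1qa*, 0.553 for *Clec4f* and *Csf1r*, and up to 0.854 for *Marco*, so that 0 of the 10 genes passed the threshold. With that test 0 of all tested genes (0%) passed.

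At an unadjusted p below 0.05 the day difference was found in 7 of the 10 genes, all toward day 2, against 5.16% of all tested genes in that direction (780) and 7.49% in either (1132). The 3 others were *Cd5l* (unadjusted p = 0.0503, edgeR), *Vsig4* (unadjusted p = 0.0635, edgeR) and *Marco* (unadjusted p = 0.153, edgeR). The share was not particular to the 10 genes. In the lists described below it was 17 of 20 genes of macrophages and leukocytes at large. It was 5 of 6 other Kupffer cell genes, 5 of 6 monocyte genes, 0 of 15 sinusoidal endothelial genes and 0 of 10 hepatocyte genes. DESeq2 called 229 genes for day, among them *C1qb* (log2 difference 2.19, adjusted p = 0.00778) and *C1qa* (2.08, adjusted p = 0.0128). The days did not overlap in *Clec4f*, *C1qa* and *C1qb*, where the lowest library of day 2 lay just above *Sucnr1* fl/fl replicate 1, against 8.51% of all tested genes with day 2 higher. In the other 7 genes *Sucnr1* fl/fl replicate 2, of day 2, lay below *Sucnr1* fl/fl replicate 1, of day 1.

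A single library carried much of the day difference. Without Hep-*Sucnr1* KO replicate 3 the log2 differences lay between 0.38 (*Marco*) and 1.35 (*C1qb*), with a median of 1.03. Without *Sucnr1* fl/fl replicate 1, which leaves Hep-*Sucnr1* KO replicate 3 as the lone day 1 library, they lay between 3.04 (*C1qa*) and 4.92 (*Vsig4*). Without *Sucnr1* fl/fl replicate 2 they lay between 2.40 and 2.76, and the lowest adjusted p of the 10 genes was 0.0604 (edgeR). The ratio of the summed levels of day 2 to day 1 was 3.71 with all libraries, 2.23 without Hep-*Sucnr1* KO replicate 3, 10.9 without *Sucnr1* fl/fl replicate 1 and 4.45 without *Sucnr1* fl/fl replicate 2. In bulk libraries fewer Kupffer cells in a culture and less of these RNAs per Kupffer cell cannot be told apart.

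The 10 genes varied in step. Over the 6 libraries the Pearson correlation of log2 CPM was between 0.899 (*Marco* and *C1qb*) and 0.999 (*Clec4f* and *Csf1r*) in the 45 pairs of genes, with a median of 0.987. These values describe 6 points that share their libraries, of which 1 lies far below the rest, and carry no test. The shares of the single genes in the summed counts showed where the step was uneven. *Csf1r* gave 7.63% to 8.70% of the counts of the 10 genes in all libraries, *Adgre1* 4.04% to 4.80% and *Clec4f* 15.3% to 18.6%.

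*Marco* had the least even share. It gave 7.73% of the counts in *Sucnr1* fl/fl replicate 1 (95% Wilson interval 6.62% to 9.02%) and 3.15% in *Sucnr1* fl/fl replicate 2 (2.37% to 4.17%), 2 libraries whose summed levels were close. Its share was 5.46% in *Sucnr1* fl/fl replicate 3, 4.83% in Hep-*Sucnr1* KO replicate 5 and 2.79% in Hep-*Sucnr1* KO replicate 4 (2.35% to 3.30%), and 1.55% in Hep-*Sucnr1* KO replicate 3 (0.665% to 3.58%). The share of *Marco* thus differed between libraries of the same genotype and day by more than counting error. *Cd5l* gave 8.39% of the counts in Hep-*Sucnr1* KO replicate 3 and 14.5% to 17.6% in the other 5 libraries, and *Vsig4* gave 0.932% and 2.39% to 2.93%.

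**Figure D3:**
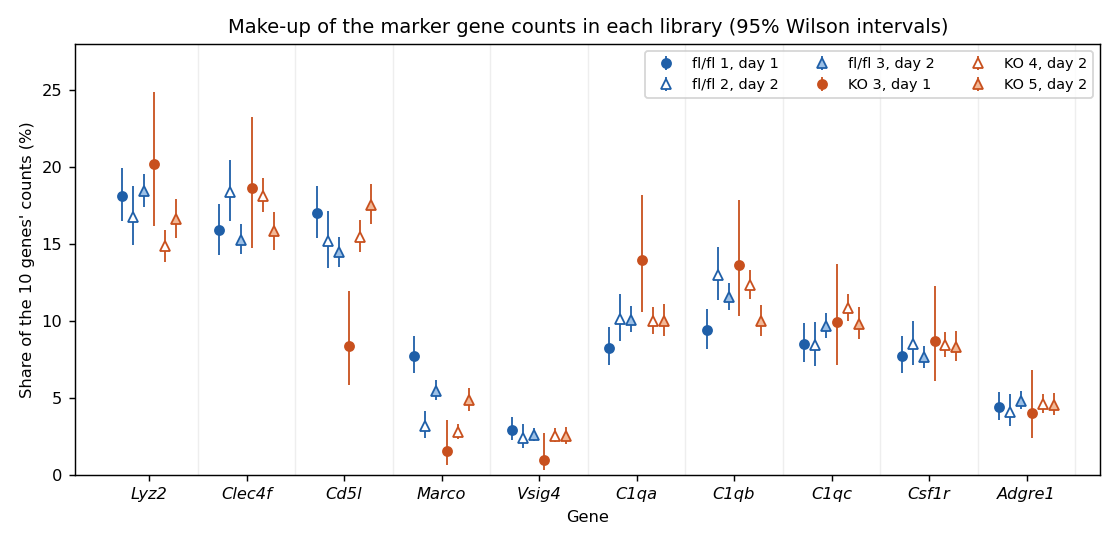
Share (%) of each marker gene in the counts of all 10 genes, by library, with 95% Wilson intervals (counting error only). Colours and symbols stand for genotype and day as in the plot of CPM by library. Csf1r and Adgre1 keep nearly constant shares and Clec4f lies between 15.3% and 18.6%. Marco ranges from 1.55% to 7.73%, and Cd5l is lowest, at 8.39%, in Hep-Sucnr1 KO replicate 3.

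Genes outside the lists whose log2 CPM followed the median deviation of the 10 genes most closely included, in order of the Pearson correlation over 6 libraries, *Wfdc17*, *Slc11a1*, *Pmp22*, *Acad11*, *Nckap1l*, *Siglece*, *Gatm*, *Ifi204* and *Adgre5*. Their correlations lay between 0.9969 and 0.9995, in a field where 375 of 11611 genes (3.23%) reached 0.9, and 6 points with 1 far below the rest are easily matched. *Slc11a1* encodes a metal transporter of macrophage phagosomes, *Nckap1l* a regulator of actin in blood cells and *Siglece* a sialic acid receptor of myeloid cells. *Wfdc17*, first in the order, stood at 2.37, 2.07 and 9.26 CPM in *Sucnr1* fl/fl and at 0.475, 7.77 and 5.07 CPM in Hep-*Sucnr1* KO. *Acad11*, which encodes a fatty acid dehydrogenase, matched the order of libraries over a range of only 118.9 to 144.2 CPM.

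Other genes of Kupffer cell identity followed a like order of libraries. Of 6 such genes (*Timd4*, *Folr2*, *Cd163*, *Spic*, *Clec1b* and *Fcna*), all 6 were lowest in Hep-*Sucnr1* KO replicate 3, with a median log2 day difference of 1.96 against 0.02 over all tested genes, and 0 of 6 passed the adjusted threshold in edgeR. *Fcna*, which encodes a soluble lectin, was at 3.93, 4.60 and 13.9 CPM in *Sucnr1* fl/fl and at 1.42, 14.7 and 9.80 CPM in Hep-*Sucnr1* KO. *Spic*, the gene of a transcription factor of red pulp macrophages and Kupffer cells, was at 1.27, 1.80 and 6.20 CPM and at 0.411, 5.17 and 3.79 CPM. *Clec1b* differed least by day of the 6, with a log2 difference of 0.54 ± 0.62 (SE).

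Among 12 genes around the CSF1 receptor, its ligands and the transcription factors of macrophages, 11 were tested and 0 passed the adjusted threshold for day or genotype in edgeR. The median log2 day difference of the list was 0.54. *Spi1*, the gene of PU.1, was at 1.66, 2.41 and 6.62 CPM in *Sucnr1* fl/fl and at 0.443, 6.998 and 4.86 CPM in Hep-*Sucnr1* KO, with a log2 day difference of 2.33 ± 0.65 (SE). *Id3* and *Rbpj*, the members of the list with the highest levels, were at 286.3 to 336.0 CPM and 43.5 to 89.6 CPM. The ligand gene *Csf1* was at 39.0, 41.9 and 46.9 CPM in *Sucnr1* fl/fl and at 24.1, 39.7 and 65.6 CPM in Hep-*Sucnr1* KO, and the ligand gene *Il34* was under the filter.

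Of 10 other genes listed around complement, 0 were lowest in Hep-*Sucnr1* KO replicate 3 and the median log2 day difference was 0.00. The list holds *C1ra* and *C1s1* of the C1 complex, and also *Cd93*, *C1qbp*, *Calr* and *Lrp1*. *C3* lay between 5665 and 7970 CPM and *C4b* between 1081 and 1468 CPM, ranges far narrower than those of the C1q chains. Of 10 scavenger receptor genes, 9 were tested, and the median log2 day difference was 0.12. Of the 9, 5 were lowest in Hep-*Sucnr1* KO replicate 3. *Scarb1* lay between 88.7 and 108.2 CPM and *Scarb2* between 77.0 and 99.1 CPM. *Msr1* followed the marker genes more closely, at 0.411 CPM in Hep-*Sucnr1* KO replicate 3 and 7.05 CPM in *Sucnr1* fl/fl replicate 3. Its log2 day difference was 1.72 ± 0.87 (SE), and that of *Cd163*, also in this list, was 1.71 ± 0.64. For both lists 0 genes passed the adjusted threshold in edgeR.

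Markers of other blood cells were read in the same libraries. Of 20 genes of macrophages and leukocytes at large, 15 were lowest in Hep-*Sucnr1* KO replicate 3, with a median log2 day difference of 1.98 and 0 genes past the threshold. The members with the highest levels had other lowest libraries. *Lcp1*, which encodes an actin-bundling protein, was at 229.3 to 469.3 CPM, lowest in *Sucnr1* fl/fl replicate 2. Its log2 day difference was −0.09 ± 0.31 (SE). *Mpeg1*, which encodes a pore-forming protein of macrophages, was at 40.0 to 135.5 CPM, lowest in *Sucnr1* fl/fl replicate 1. It was higher on day 2, with a log2 day difference of 1.06 ± 0.25 (SE). *Cd68*, a lysosomal gene widely used as a macrophage marker, was at 39.1, 18.6 and 40.7 CPM in *Sucnr1* fl/fl and at 29.0, 24.3 and 39.2 CPM in Hep-*Sucnr1* KO, and the 2 lowest of these were libraries of day 2.

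The summed level of the 9 MHC class II and dendritic cell genes ranged from 19.9 CPM in Hep-*Sucnr1* KO replicate 3 to 104.8 CPM in *Sucnr1* fl/fl replicate 3. *Cd74* was at 11.3, 15.2 and 50.9 CPM in *Sucnr1* fl/fl and at 4.81, 49.9 and 44.1 CPM in Hep-*Sucnr1* KO, and *H2-Ab1* at 7.76 to 24.95 CPM, while the dendritic cell markers *Xcr1* and *Cd209a* held at most 2 counts and were at 0 in at least 3 libraries. The 6 monocyte genes summed to 1.42 CPM in Hep-*Sucnr1* KO replicate 3 and to 13.9 CPM at most, with *Plac8* at 1.01 to 8.15 CPM and *Ly6c2* at 0.0316 to 2.04 CPM. The 8 neutrophil genes summed to 1.22 to 7.59 CPM, with *Csf3r* at 0.127 to 3.66 CPM, *S100a9* at 0.182 to 1.88 CPM and *Ly6g* at 0 in at least 3 libraries. The monocyte and neutrophil sums were below the sum of the 10 Kupffer cell genes in every library, while the MHC class II and dendritic cell sum exceeded it in Hep-*Sucnr1* KO replicate 3. Over the tested genes the median log2 day difference was 2.18 for the MHC class II and dendritic cell list, 3.04 for monocytes and 1.94 for neutrophils. It was 2.06 for the 10 Kupffer cell genes. In the monocyte list 2 of 6 genes, and in the neutrophil list 3 of 8, were at 0 in at least 1 library.

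The 10 lymphocyte genes summed to 23.3 to 65.0 CPM, carried by *Ighm* (9.86 to 31.2 CPM) and *Ccl5* (2.85 to 37.5 CPM), and 5 of them were at 0 in at least 1 library. The 6 erythroid genes summed to 73.5 to 115.0 CPM, nearly all from *Alas2*, which was at 71.2 to 101.5 CPM, and *Hbb-bs* was at 0.538 to 4.81 CPM. Over the tested genes the median log2 day difference was 1.46 for the lymphocyte list and 1.43 for the erythroid list. The genes of highest level in these lists, *Ighm* and *Alas2*, had day differences of −0.50 and 0.06. The part of any of these cells in the levels of *Lyz2*, *Csf1r* or *Adgre1*, which other myeloid cells also make, was not tested.

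Other cells of the liver showed other orders of libraries. The 15 sinusoidal endothelial genes summed to 122.1 CPM in *Sucnr1* fl/fl replicate 1, where the 10 Kupffer cell genes were low, and to 45.9 to 79.8 CPM in the other 5 libraries. Their sum was lowest in Hep-*Sucnr1* KO replicate 3, like that of the Kupffer cell genes, and their median log2 day difference was −0.23. *Cdh5* was at 11.9 to 43.4 CPM and *Pecam1* at 6.99 to 18.8 CPM, and both were highest in *Sucnr1* fl/fl replicate 1. The 12 stellate cell genes, of which 8 were tested, summed to 38.2 CPM in the same library and to 9.33 to 16.3 CPM in the others, with *Ecm1* at 4.21 to 12.1 CPM and *Dcn* at 1.98 to 10.4 CPM. The median log2 day difference of the 8 tested stellate genes was −0.92, and 0 of them were higher on day 2. Hep-*Sucnr1* KO replicate 3 was lowest in 9 of the 15 endothelial genes but in only 1 of the 8 tested stellate genes.

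The 8 cholangiocyte genes summed to 350.4 to 650.6 CPM, highest in Hep-*Sucnr1* KO replicate 3, with *Spp1* at 265.6 to 525.6 CPM and *Sox9* at 83.1 to 122.2 CPM. Of the 10 hepatocyte genes, *Trf*, the transferrin gene, lay between 11248 and 14845 CPM, and the median log2 day difference of the list was −0.01. In all of these lists 0 genes passed the adjusted threshold for genotype or day in edgeR. The differences between the lists and the 10 Kupffer cell genes were not themselves tested.

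**Figure D4:**
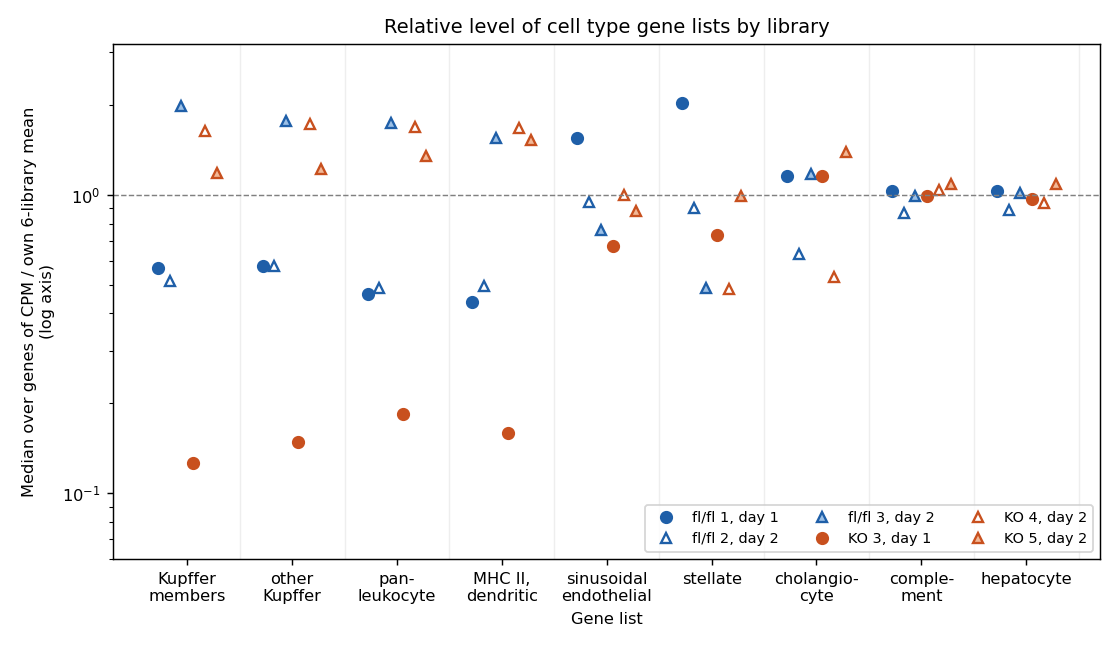
Relative level of gene lists by library, as the median over the tested genes of a list of CPM divided by the gene's own mean over the 6 libraries (log axis, dashed line at 1). Colours and symbols stand for genotype and day as in the plot of CPM by library. The Kupffer cell genes run from 0.127 in Hep-Sucnr1 KO replicate 3 to 1.99 in Sucnr1 fl/fl replicate 3. The other Kupffer, pan-leukocyte and MHC II lists are also lowest in Hep-Sucnr1 KO replicate 3, as is the endothelial list, at 0.674. Endothelial and stellate genes peak in Sucnr1 fl/fl replicate 1, and hepatocyte genes stay between 0.886 and 1.09.

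The order of *Sucnr1* over the libraries was unlike that of the marker genes. *Sucnr1*, which macrophages can also express, was highest in *Sucnr1* fl/fl replicate 1, whose summed level of the 10 genes was 49.8 CPM, and did not exceed 0.827 CPM in Hep-*Sucnr1* KO replicates 4 and 5, whose summed levels were 136.6 and 99.2 CPM. In Hep-*Sucnr1* KO replicate 3 *Sucnr1* was at 2.66 CPM where the 10 genes summed to 10.2 CPM. Among the Hep-*Sucnr1* KO cultures the library lowest in marker genes was the highest in *Sucnr1*. That library was also the only Hep-*Sucnr1* KO library of its extraction day. Which cells the *Sucnr1* reads came from was not tested.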

How the data were processed

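Messenger RNA of 6 cultures of primary mouse hepatocytes (3 *Sucnr1* fl/fl, 3 Hep-*Sucnr1* KO) was sequenced in pairs on a stranded kit. Per the labels and the study's methods, the authors trimmed reads with Trim Galore 0.6.7, aligned them to GRCm38 with STAR 2.7.10a and deposited raw counts of read pairs per gene (featureCounts, strand used, Ensembl annotation). How pairs matching several genes were counted is not given in the sources used here.

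CPM come from edgeR 4.0.16 under R 4.3.3, with TMM scaling. The filter kept genes with a mean DESeq2-normalized count above 5. Genotype, extraction day and their interaction were tested with edgeR's quasi-likelihood test across all 15105 genes, calling an FDR (Benjamini-Hochberg) under 0.05, where the authors used DESeq2 with extraction date as covariate. SE are the log2 fold change divided by the root of F. Alternatives were DESeq2 1.42.0, other scalings and filters, no covariate, day 2 alone and each library left out. The fits were tested on simulated data. Positions are of GENCODE on GRCm38. Python 3.11.15, pandas 2.3.3 and SciPy 1.17.1 were used. Totals of 30504248 to 38770694 counts put over 30 counts behind 1 CPM, and intervals cover counting error only.

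The 10 genes and 14 comparison lists were chosen with earlier results of these data known. Named were all 10 genes, *Sucnr1*, from each list the 2 tested genes of highest mean CPM and any past the threshold, and the 10 genes of at least 1 mean CPM outside the lists most correlated with the 10, of which 1 is not reported here. *Lyz1*, *Timd4*, *Folr2*, *Cd163*, *Clec1b*, *Spi1*, *Csf1*, *Il34*, *C1ra*, *C1s1*, *Cd93*, *C1qbp*, *Calr*, *Lrp1*, *Msr1*, *Cd68*, *Xcr1*, *Cd209a* and *Ly6g* were named outside this rule, with their values seen. The labels number the replicates without naming animals, so p-values measure the spread between these libraries, which may be technical.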

Additional observations from a re-analysis of the deposited data

How the results depend on the processing

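No paired analysis was possible because the groups share only replicate number 3. For genotype, DESeq2 called 13 genes against 0 in edgeR, and all edgeR settings gave 0. For day, edgeR called 122 genes with no filter on low counts, DESeq2 229 with *C1qa* (2.08) and *C1qb* (2.19) the 2 members among them, and leaving out 1 library gave 0 to 29, the latter without *Sucnr1* fl/fl replicate 2. For the interaction DESeq2 called 4. The members' day differences kept their direction in all settings. Their genotype differences, none past the threshold, turned above 0 with no covariate for *Clec4f* (0.0464), *Cd5l* (0.0224), *C1qc* (0.104) and *Csf1r* (0.0461). With the day 2 libraries alone they were 0.28 for *Clec4f*, 0.34 for *Cd5l*, 0.18 for *Vsig4*, 0.17 for *C1qa*, 0.11 for *C1qb*, 0.33 for *C1qc*, 0.29 for *Csf1r* and 0.16 for *Adgre1*. Leaving out 1 library gave ranges of −0.97 to 0.28 for *Clec4f*, −1.34 to 0.34 for *Cd5l*, −1.36 to 0.18 for *Vsig4*, −0.87 to 0.17 for *C1qa*, −0.96 to 0.11 for *C1qb*, −0.97 to 0.33 for *C1qc*, −0.97 to 0.29 for *Csf1r* and −1.15 to 0.16 for *Adgre1*. The ratio of summed levels of day 2 to day 1 ranged from 2.23 to 10.9 and that of Hep-*Sucnr1* KO to *Sucnr1* fl/fl from 0.635 to 1.75, the latter end without *Sucnr1* fl/fl replicate 3. The cause of these shifts was not tested beyond the libraries left out. With 2 libraries on day 1, each fit without 1 of them assumes that the lone library varies like the others. Depth limits *Vsig4* and *Marco* in Hep-*Sucnr1* KO replicate 3, with 3 and 5 counts.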
